A study of Mus musculus with 8 samples.

Results

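Of 10 core circadian clock genes listed by name, 9 were measured by a probe set that names that gene alone: Arntl, Clock, Per1, Per2, Per3, Cry1, Nr1d1, Nr1d2 and Dbp. They are 9 of 19938 genes on the array, each with 1 probe set, and Npas2 is not analysed here. The genes were listed by name, with earlier results of these data known. RNA came from the livers of C57BL6 mice (BL6J in the sample descriptions), 4 arrays per group, on Affymetrix Mouse Gene 1.0 ST arrays. Every mouse had been fasted for 17 h before death and kept under 12 h of light and 12 h of dark at 24 degrees C. The hydrogen water group had drunk water with dissolved hydrogen for 4 weeks from the age of 7 weeks. A starting age of 7 weeks is given for the controls too. The control group carries the same treatment text in its labels, so what controls drank is read only from their titles and descriptions. The labels give neither the sex of the mice, nor the clock hour at which a liver was taken, nor whether each array is a separate animal. P-values therefore measure the spread between these arrays, which may be partly technical.

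The circadian clock of a liver cell is a loop of transcription factors that feeds back on itself in a daily rhythm. CLOCK (or its relative NPAS2) pairs with BMAL1, the product of Arntl, and the pair binds E-boxes to switch on the Per and Cry genes, Nr1d1, Nr1d2 and Dbp. PER and CRY proteins then repress that pair, and the receptors REV-ERBα and REV-ERBβ, encoded by Nr1d1 and Nr1d2, repress Arntl, Clock, Npas2 and Cry1 through ROR elements. DBP and its relatives TEF and HLF bind D-boxes, which the repressor NFIL3 also binds. In mouse liver the activators Arntl, Clock and Npas2 peak near the change from dark to light, and Nr1d1, Nr1d2, Dbp and the Per genes peak in the light phase or around dusk, so the level of a clock gene in a single liver depends on the hour of sampling. Fasting and feeding times also act on the liver clock.

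These routes can be looked for in the DNA around the members' start sites, and the stretches shown are those that hold a match to 1 of 5 motifs. Sequences are from RefSeq on GRCm38.p6 and run 5′ to 3′ on the strand of the gene. An entry was matched for 8 of the 9 measured genes, all but Per2. Capitals mark the motifs, searched on both strands in a window from 250 bases before to 50 bases after each start: the E-box CACGTG, its variant CACGTT, the D-box as TTATGTAA or TTACGTAA, the ROR element core TAGGTCA and the cAMP element TGACGTCA. No matches in these genes overlapped.
Per3: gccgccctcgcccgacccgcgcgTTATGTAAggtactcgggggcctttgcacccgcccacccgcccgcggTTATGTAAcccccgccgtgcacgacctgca
Cry1: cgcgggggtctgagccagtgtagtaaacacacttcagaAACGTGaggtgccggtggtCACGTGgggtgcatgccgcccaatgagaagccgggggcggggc
Per1: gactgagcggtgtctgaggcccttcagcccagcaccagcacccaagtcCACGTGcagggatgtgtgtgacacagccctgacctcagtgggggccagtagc
Nr1d1: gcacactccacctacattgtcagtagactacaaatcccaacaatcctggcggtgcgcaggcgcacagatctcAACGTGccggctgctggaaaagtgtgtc
Arntl: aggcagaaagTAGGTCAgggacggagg

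The Per3 stretch (chr4:151044794-151044893, minus strand) holds 2 copies of the D-box, a motif found in 1.06% of the 32851 RefSeq mouse windows of 300 bases. Cry1 (chr10:85185072-85185171, minus strand) holds 1 E-box and 1 copy of the variant, and Per1 (chr11:69098735-69098834, plus strand) holds 1 E-box. The E-box stood in 7.15% of all windows and the variant in 4.68%. Nr1d1 (chr11:98775378-98775477, minus strand) holds 1 copy of the variant. The Arntl match to the ROR element core (chr7:113207531-113207557, plus strand) lies past both of its listed start sites, inside the window of the later one, and that motif stood in 2.61% of windows. Clock, Nr1d2 and Dbp had no match in these windows, and the cAMP element, present in 1.79% of all windows, was found in none of the 8 genes. A match describes letters in a window and not binding.

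The level of the clock genes differed more between single arrays of a group than between the group means. Dbp, the D-box activator (transcript cluster 10553092), had the widest spread. Its log2 signals were 9.07, 7.16, 7.63 and 8.23 on controls 1 to 4 and 7.70, 7.77, 9.02 and 8.30 on hydrogen water 1 to 4. Control 1 and hydrogen water 3 were the highest arrays and control 2 the lowest, and the groups overlapped throughout. From lowest to highest array the range was 1.91 on the log2 scale, a 3.77-fold difference in signal.

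Arntl, the BMAL1 gene (10556463), was the other way round on the arrays at the extremes of Dbp. It stood at 6.96, 8.02, 7.47 and 7.60 on controls 1 to 4 and at 7.84, 7.61, 6.67 and 7.95 with hydrogen water. The lowest arrays were hydrogen water 3 and control 1, those with the highest Dbp, and the highest was control 2, which had the lowest Dbp. Clock (10530733), its partner, kept to a narrower band of 9.15, 9.38, 9.80 and 9.22 in controls and 9.44, 9.50, 9.32 and 9.80 with hydrogen water. Control 3 and hydrogen water 4 were its highest arrays.

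**Figure D1:**
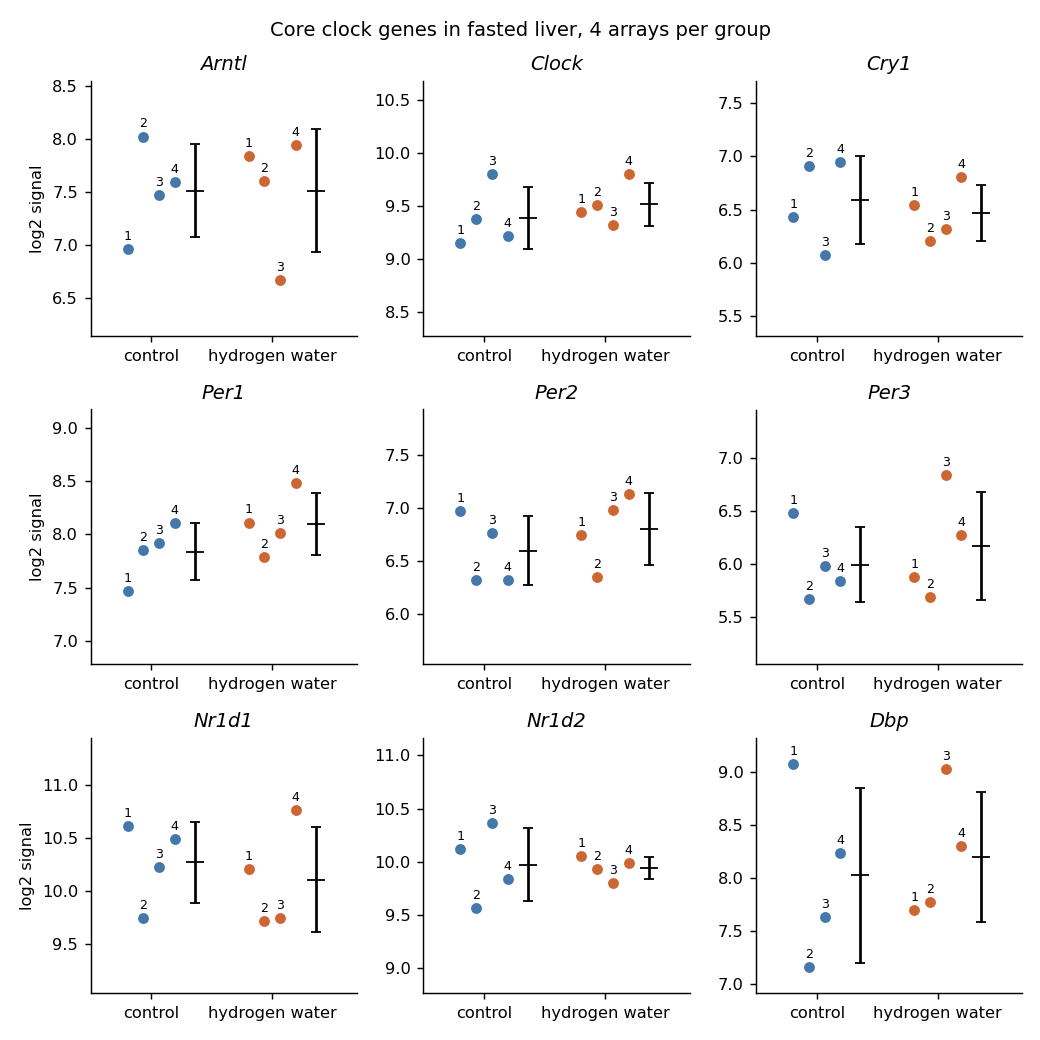
Log2 signal of the 9 measured core clock genes, 1 point per array with its replicate number, beside the mean and SD of each group (n = 4). Every panel spans the same height on the log2 scale, and in every gene the values of the control and hydrogen water arrays overlap; Dbp has the widest range, 1.91.

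Among the repressors, Per3 (10518781) followed Dbp. Its values were 6.48, 5.67, 5.98 and 5.84 in controls and 5.88, 5.69, 6.84 and 6.28 with hydrogen water, again highest on hydrogen water 3 and control 1. Per2 (10356601), whose protein joins CRY in the repressor complex, stood at 6.97, 6.33, 6.76 and 6.33 in controls and 6.75, 6.35, 6.98 and 7.13 with hydrogen water. Hydrogen water 4, hydrogen water 3 and control 1 were its 3 highest arrays. Per1 (10377439), which cAMP and glucocorticoid signals also induce, had another order: 7.47, 7.85, 7.92 and 8.11 in controls and 8.11, 7.78, 8.02 and 8.48 with hydrogen water. Its lowest array was control 1 and its highest hydrogen water 4.

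Cry1 (10371400), the late-night repressor, stood at 6.43, 6.91, 6.07 and 6.95 in controls and 6.54, 6.21, 6.32 and 6.81 with hydrogen water. The REV-ERBα gene Nr1d1 (10390691) stood at 10.61, 9.75, 10.23 and 10.49 in controls and 10.21, 9.72, 9.74 and 10.76 with hydrogen water. It was low on hydrogen water 3, where Dbp and Per3 were high. Nr1d2 (10417734), the REV-ERBβ gene, lay between 9.57 and 10.36 in controls and only between 9.80 and 10.05 with hydrogen water.

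Measured against the rest of the array, all 9 were among the more variable genes within a group. The within-group SD of log2 signal, pooled over both groups, was 0.73 for Dbp, 0.51 for Arntl, 0.44 for Nr1d1 and 0.44 for Per3. These 4 lay above the 95th percentile of the 19938 genes tested (99.7, 98.9, 97.9 and 97.9). Cry1 and Per2 followed at the 94.6 and 93.3 percentiles, and Per1, Nr1d2 and Clock at 86.8, 81.5 and 80.6. All 9 lie above the median level. Among genes above that level their percentiles were lower, from 73.1 for Clock to 99.5 for Dbp. The median SD of the 9 was 0.35, beside 0.18 over all genes. The difference between groups accounted for a median of 4.30% of the sum of squares of a clock gene, with 22.3% for Per1 as the highest value, beside a median of 9.66% over all genes.

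The comparison of the study, hydrogen water against control, was tested with limma over all genes. Of the 9 clock genes, 0 had a Benjamini-Hochberg adjusted p under 0.05, as did 0% of all genes tested, and 0 had an unadjusted p under 0.05, against 7.17% of all genes in either direction. In 0 of the 9 did the 4 values of a group lie apart from those of the other, against 3.76% of all genes. The median difference was 0.13 on the log2 scale for the clock genes and −0.0047 for all genes, and 6 of the 9 were higher with hydrogen water, against 48.7% of all genes. Lower values in bulk tissue can come from less RNA per cell or from fewer cells of a type, and these cannot be told apart.

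Arntl averaged 7.51 ± 0.44 (SD, n = 4) on control arrays. Its hydrogen water mean, 7.51 ± 0.58 (SD, n = 4), was 0.0015 away (95% interval −0.59 to 0.60). For Clock it was 0.13 (95% interval −0.20 to 0.46). Mean Dbp was 8.02 ± 0.83 (SD, n = 4) on control arrays. It was 8.20 ± 0.61 (SD, n = 4) after hydrogen water, 0.17 above it (95% interval −0.64 to 0.99). That interval is the widest of the 9, so with 4 arrays per group a shift of mean Dbp anywhere between its limits remains possible.

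The 3 Per genes were each higher in mean with hydrogen water, by less than the spread between arrays. Per1 averaged 7.84 ± 0.27 (SD, n = 4) on control arrays. Its hydrogen water mean of 8.10 ± 0.29 (SD, n = 4) was 0.26 above that (SE 0.17), with the lowest limma adjusted p of the 9 (0.789). Per2 differed by 0.21 (95% interval −0.20 to 0.62) and Per3 by 0.18 (95% interval −0.34 to 0.69). Cry1 differed by −0.12 (95% interval −0.55 to 0.31) and Nr1d1 by −0.16 (95% interval −0.68 to 0.36). Nr1d2 differed by −0.032 (95% interval −0.37 to 0.31), the narrowest interval but for Clock. Exact two-sided permutation tests over the 70 assignments of the arrays gave p between 0.257 and 1 for the 9 genes, where the smallest p the design allows is 0.0286.

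**Figure D2:**
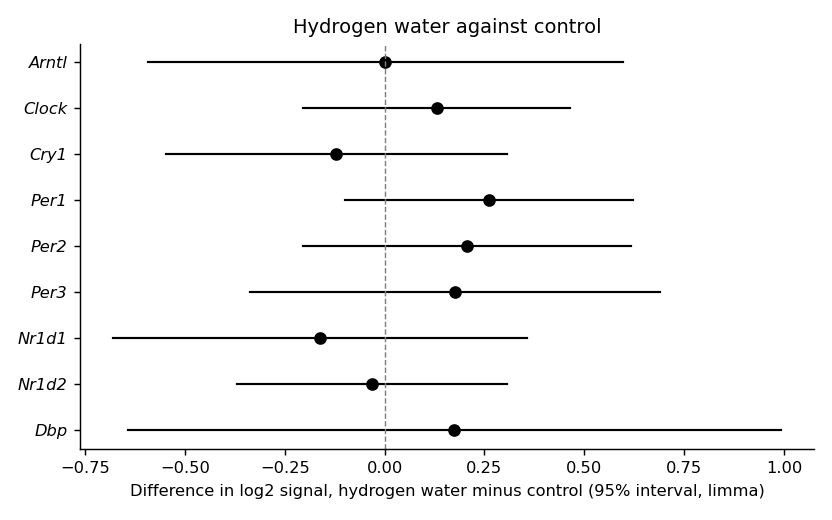
Difference in mean log2 signal, hydrogen water minus control, for the 9 clock genes (points) with 95% intervals from limma (lines). Every interval includes 0, from the −0.64 to 0.99 of Dbp to the −0.20 to 0.46 of Clock.

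To set the activators against the genes that peak later in the day on each array, an index was formed from log2 signals centred on each gene's mean over the 8 arrays. It is the mean of Arntl and Clock minus the mean of the 6 evening genes Nr1d1, Nr1d2, Dbp, Per1, Per2 and Per3; Cry1 is in neither arm. A higher value means relatively more activator message. The index was −0.71, 0.66, 0.17 and −0.05 on controls 1 to 4 and 0.21, 0.37, −0.72 and 0.07 on hydrogen water 1 to 4. Control 1 and hydrogen water 3 lay apart from the other arrays at the low end, and control 2 was highest.

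On control 1 the activators stood at −0.42 and the evening genes at 0.29 around their means, and on hydrogen water 3 at −0.49 and 0.23. Control 2 had the mirror image, 0.22 and −0.45. On hydrogen water 4 both arms were high, 0.39 and 0.32, and its index was near 0. The index averaged 0.02 ± 0.57 (SD, n = 4) over the control arrays. Over the hydrogen water arrays it averaged −0.02 ± 0.48 (SD, n = 4), a shift of −0.04. Each group thus held 1 array at the low end, and the index ranged over 1.38 within controls and 1.09 within hydrogen water. Control 1 and hydrogen water 3 stayed the lowest arrays with Cry1 among the activators, without Per1 and Per2, and with Arntl against Dbp alone. They also did with each gene divided by its SD and after quantile normalization. Averaging probe sets leaves the index as it is. Leaving out another array shifts all its values alike, so neither can change that order. Whether livers were taken at different hours was not tested, because no hour is given.

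**Figure D3:**
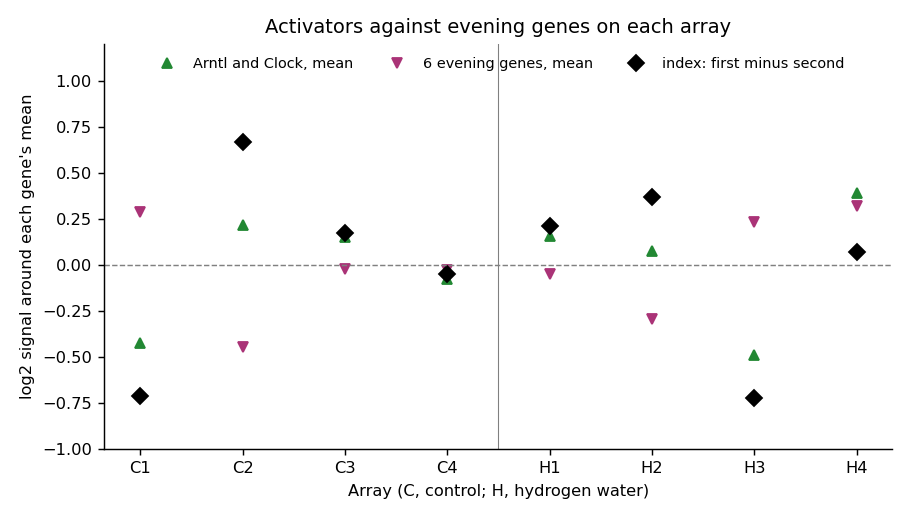
Mean log2 signal around each gene's own mean for Arntl and Clock (green triangles) and for 6 evening genes (purple triangles), and the first minus the second (black diamonds), on each of the 8 arrays. The index is lowest on C1 (−0.71) and H3 (−0.72) and highest on C2 (0.66), so both groups span low and high values.

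Correlations between the 9 genes over the 8 arrays were computed for all 36 pairs. By exact two-sided permutation tests of Pearson's r, 4 pairs had an unadjusted p under 0.05 and 0 had an adjusted p under 0.05. The closest pair was Per3 and Dbp (r = 0.883, exact permutation p = 0.00375, adjusted p = 0.135; Spearman's rho = 0.762, exact permutation p = 0.0368, adjusted p = 0.662). Without control 1 and hydrogen water 3, the arrays farthest from the median of Per3, r was 0.648. Per2 and Per3 had the next highest positive value (r = 0.813, exact permutation p = 0.0170, adjusted p = 0.178; rho = 0.857, exact permutation p = 0.0107, adjusted p = 0.386), and r was 0.766 without controls 2 and 4.

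Arntl ran against Dbp (r = −0.813, exact permutation p = 0.0160, adjusted p = 0.178; rho = −0.595, exact permutation p = 0.132, adjusted p = 0.665). It also ran against Per3 (r = −0.800, exact permutation p = 0.0198, adjusted p = 0.178; rho = −0.690, exact permutation p = 0.0694, adjusted p = 0.665). Without control 1 and hydrogen water 3 these values were −0.222 and 0.0978, so both relations rest on those arrays. With group means subtracted, the 4 pairs gave 0.883 for Per3 and Dbp, 0.804 for Per2 and Per3, −0.821 for Arntl and Dbp and −0.822 for Arntl and Per3. Of the 15 pairs among evening genes, 12 were positive, with a median r of 0.284. Of the 12 pairs of an activator with an evening gene, 6 were positive and 6 negative, with a median r of −0.031. Correlation r was negative with 4 of the 6 evening genes for Arntl and with 2 of the 6 for Clock.

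**Figure D4:**
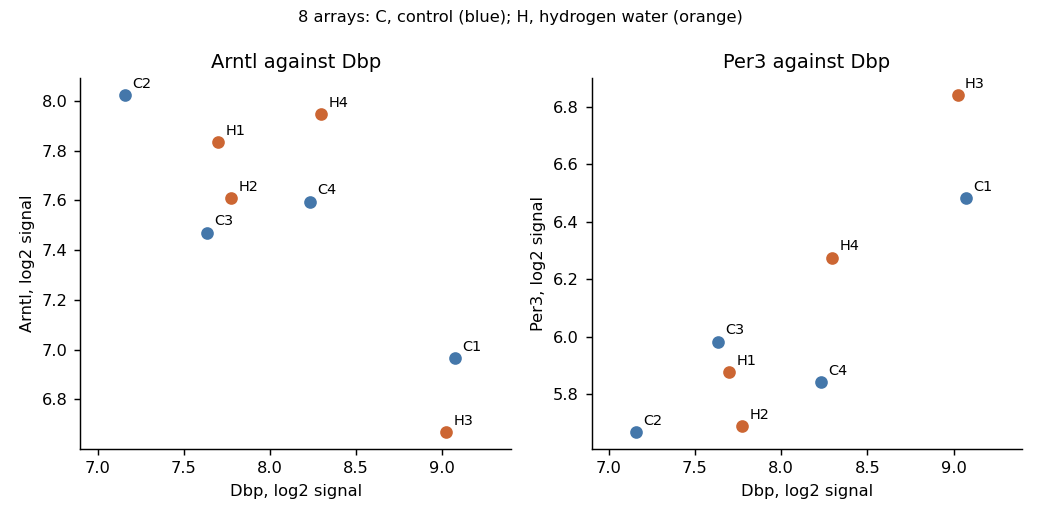
Log2 signal of Arntl (left) and Per3 (right) against that of Dbp on the 8 arrays, labelled C1 to C4 for control and H1 to H4 for hydrogen water. C1 and H3 sit at high Dbp with low Arntl and high Per3; r over all 8 arrays is −0.813 on the left and 0.883 on the right, and −0.222 and 0.648 without those arrays.

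Genes with the most similar or most opposite pattern over the 8 arrays were looked up for Arntl and for Dbp among 9676 named genes above the median level, as a description. Wee1, a cell cycle kinase gene known as a clock output in liver, had the lowest r to Arntl of all of them (−0.963), at 6.76 on control 1 and 6.96 on hydrogen water 3 against 5.95 to 6.25 on the other 6 arrays. After it came Dsp (−0.952), the desmosome protein desmoplakin, Tsc22d1 (−0.942) and the aquaporin gene Aqp11 (−0.914). The highest r to Arntl were those of Irf2bp2 (0.970), Clpx (0.961), part of a mitochondrial protease, Rbpms (0.935) and Gatd1 (0.932). For Dbp the highest were Crebl2 (0.952), Ank3 (0.938), Usp28 (0.930) and Tef (0.915), whose protein binds D-boxes as DBP does. The lowest were Abhd6 (−0.948), Tff3 (−0.942), Thbd (−0.928) and Tnnt2 (−0.927). These are the extremes of 9676 genes over 8 arrays and carry no test.

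The remaining parts of the loop were described with 3 further lists. Of 10 measured partners of the core loop (of 11 listed), 0 passed the adjusted threshold and 0 had an unadjusted p under 0.05; 8 were higher with hydrogen water, and the median difference was 0.09. The D-box activator Tef stood at 8.67, 7.72, 8.17 and 8.30 in controls and 8.40, 8.10, 8.80 and 8.47 with hydrogen water, highest on the arrays where Dbp was highest. Its difference was 0.23 (SE 0.19). Timeless differed by 0.09 (SE 0.10). On the lower side, Bhlhe40, which encodes the E-box repressor DEC1, differed by −0.28 (SE 0.16) and the ROR family gene Rorb, at the low level of 4.37 against 4.56, by −0.20 (SE 0.10).

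**Figure D5:**
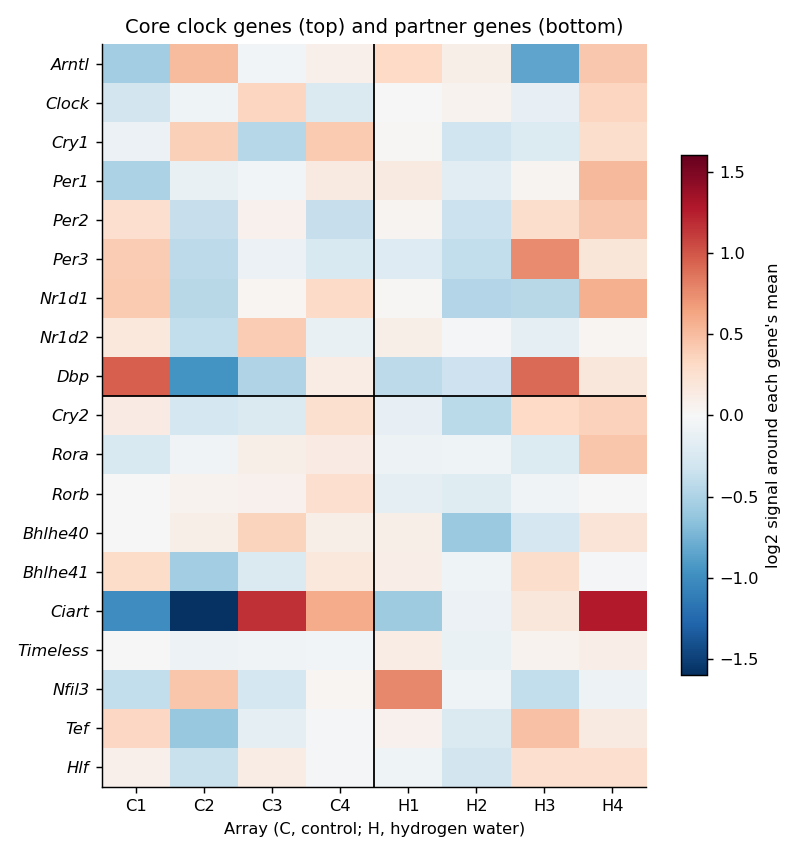
Log2 signal around each gene's own mean for the 9 core clock genes (above the black line) and 10 measured partner genes (below it) on the 8 arrays; red is higher and blue lower than that gene's mean. Dbp and Tef are highest on C1 and H3, where Arntl is lowest, and Ciart, which has the strongest colours, follows another order, with its highest values on C3 and H4.

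Of 16 measured enzymes and cofactors that act on clock proteins (of 19 listed), 0 passed the adjusted threshold and 1 had an unadjusted p under 0.05 (6.25%, against 7.17% of all genes), with a median difference of 0.02. That share is close to the one over all genes. The gene was Kmt2a, a histone methyltransferase that works with CLOCK. It averaged 7.25 ± 0.11 (SD, n = 4) on control arrays, and its hydrogen water mean was 7.70 ± 0.27 (SD, n = 4; difference 0.44, SE 0.14, limma adjusted p = 0.638). The casein kinase 2 subunit gene Csnk2a1 differed by 0.17 (SE 0.13), and by 0.067 without control 3. The other values were, for Hdac3, the deacetylase that REV-ERB proteins recruit, −0.20 (SE 0.14; −0.062 without control 3) and, for the ubiquitin ligase gene Btrc, −0.16 (SE 0.18; 0.034 without control 3).

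Of 17 measured liver genes with a strong daily rhythm (of 19 listed), 0 passed the adjusted threshold and 3 had an unadjusted p under 0.05 (17.6%, against 7.17% of all genes), all higher with hydrogen water; the median difference was 0.09. Alas1, the first enzyme of haem synthesis, stood at 12.12, 11.19, 12.22 and 12.22 in controls and 12.48, 12.27, 12.82 and 12.60 with hydrogen water. The 4 hydrogen water arrays were all above the controls, with a difference of 0.60 (SE 0.21, limma adjusted p = 0.655). Without control 2, which lay far below the other controls, the difference was 0.36. Ppara, the fasting-activated lipid receptor, differed by 0.33 (SE 0.13), and by 0.20 without hydrogen water 4. On the lower side were Elovl3, a fatty acid elongase, with −0.47 (SE 0.27), and the chaperone gene Dnajb11 with −0.18 (SE 0.12).

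Inputs that reach the clock from outside were read from 2 lists. Of 19 measured targets of CREB or the glucocorticoid receptor (of 20 listed), 0 passed the adjusted threshold, and 3 higher and 1 lower genes had an unadjusted p under 0.05 (21.1%, against 7.17% of all genes); the median difference was 0.05. Fkbp5, a glucocorticoid target, stood at 9.01, 9.27, 9.30 and 9.62 in controls and 9.95, 9.67, 9.79 and 10.46 with hydrogen water, without overlap (difference 0.67, SE 0.17, limma adjusted p = 0.618). The metallothionein gene Mt1 differed by 0.58 (SE 0.25; 0.36 without control 1), the orphan receptor gene Nr4a2 by −0.37 (SE 0.10) and the phosphatase gene Dusp1 by −0.38 (SE 0.27). The mean of this list around each gene's mean was lowest on control 1 (−0.37) and highest on hydrogen water 4 (0.31), the arrays that were also lowest and highest for Per1. Its part in the Per1 values was not tested.

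Of 7 measured genes that respond to temperature or heat shock factor (of 8 listed), 0 passed the adjusted threshold and 1 had an unadjusted p under 0.05 (14.3%, against 7.17% of all genes), with a median difference of 0.04. With 7 genes, 1 gene makes that share. The gene was Rbm3, which encodes a cold-inducible RNA-binding protein. It averaged 11.51 ± 0.25 (SD, n = 4) on control arrays, and its hydrogen water mean was 10.90 ± 0.28 (SD, n = 4; difference −0.61, SE 0.16, limma adjusted p = 0.617). Its relative Cirbp differed by −0.18 (SE 0.28), and the chaperone genes Hsp90aa1 and Hspa8 by 0.27 (SE 0.13) and 0.12 (SE 0.12). Over the 69 distinct genes measured on these 5 lists, 5 had groups that did not overlap (7.25%, against 3.76% of all genes): Kmt2a, Alas1, Ppara, Fkbp5 and Nr4a2. All 5 are among the 20 genes named, which were picked for the smallest p in their lists. The lists themselves were chosen with earlier results of these data known, so their shares carry no test.

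The arrays carried liver RNA: the 9 measured hepatocyte markers had log2 signals of 12.58 to 14.43, and their mean around each gene's mean stayed between −0.03 and 0.06. All 10 Kupffer cell markers had a higher mean with hydrogen water, and their joint level ran from −0.42 to 0.14 over control arrays and from −0.17 to 0.60 over the others. All 10 endothelial markers of the sinusoids did too, with joint levels of −0.44 to 0.11 and −0.19 to 0.40. Of all genes, 48.7% had a higher mean. An unadjusted limma p under 0.05 was found for 4 Kupffer markers (40%) and 3 endothelial ones (30%), against 7.17% of all genes. Groups did not overlap for 1 Kupffer marker (10%) and 3 endothelial ones (30%), against 3.76% of all genes. On control 1 and hydrogen water 3, which shared the low end of the clock index, the Kupffer list stood on opposite sides of its mean (−0.28 and 0.22), and the endothelial list stood at 0.11 and 0.26. The cholangiocyte list, with 5 measured markers of which 4 lie below the median level of all genes, followed the extremes of the index: it was lowest on hydrogen water 3 (−0.26) and control 1 (−0.20) and highest on control 2 (0.39). The part of these cells in the clock gene values was not tested. Markers of stellate cells, cholangiocytes, lymphocytes, neutrophils, erythroid cells, pancreatic acinar cells, adipocytes and skeletal muscle had median differences between −0.17 and 0.07, and 0 markers on any list passed the adjusted threshold. On these lists, 1 acinar (25%), 1 adipocyte (25%), 1 lymphocyte (14.3%) and 1 stellate marker (10%) had an unadjusted limma p under 0.05. The lymphocyte marker was higher with hydrogen water and the rest lower, and 7.17% of all genes had such a p. Groups lay apart for 1 of 4 acinar and 1 of 4 adipocyte markers (25% each), against 3.76% of all genes. All 5 neutrophil markers, each below the median level, and 2 of 2 erythroid ones had a higher mean. Array medians over all probe sets lay between 5.27 and 5.37, and array to array correlations over all genes between 0.988 and 0.995.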

How the data were processed

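The log2 signals of 8 arrays, 4 per group, are those deposited by the authors. The submitters' processing notes name Affymetrix Expression Console; its version, the normalization and the genome build were not given in the sources used here. No label states the scale, and log2 was inferred from the range of the values. Groups and replicate numbers came from the sample titles.

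Of 35556 probe sets, 21789 named 1 gene, 1621 several and 12146 none here. Symbols were updated by Entrez identifier (RefSeq table of GRCm38.p6; 19856 of 19938 genes matched), keeping for each gene the probe set of highest mean signal. The test across genes was limma (version 3.58.1, under R 4.3.3) with group as the only term, two-sided, without a filter. P-values were adjusted over all genes (Benjamini-Hochberg, threshold 0.05), and the step was checked on simulated data. Intervals are 95% intervals from the moderated SE. Correlations used exact permutations (scipy 1.17.1), and plots matplotlib 3.10.9. Arrays have no read depth, so their number limits the precision.

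Members and lists were chosen with earlier results of these data known. Named genes were all measured members, in each clock or input list the 2 higher and the 2 lower genes of smallest unadjusted p, and the 4 genes with the highest and the 4 with the lowest correlation to Arntl and to Dbp. With Npas2 not analysed here, the index and the pairs hold 1 gene fewer than planned. Alternatives were leaving out dim genes, averaging probe sets, quantile normalization, median centring, a trended robust prior, weighted arrays, a block for the replicate number, arrays left out, other forms of the index, and group means subtracted.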

Additional observations from a re-analysis of the deposited data

Results flagged for a closer look

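In groups of 4 arrays, the gap between an extreme array and its nearest neighbour was compared with the range of the group, for the 9 clock genes, the 20 list genes named above and the clock index. Of 60 groups, 2 held an array past the 95% limit of Dixon's test, where chance gives about 1 in 20 groups. Alas1 stood at 11.19 on control 2, against 12.12 to 12.22 on the other controls; without it the difference was 0.36 in place of 0.60. Csnk2a1 stood at 10.24 on control 3, against 10.63 to 10.69 on the others; without it the difference was 0.067 in place of 0.17. No clock gene held such an array.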

How the results depend on the processing

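The count of genes past limma's adjusted threshold was 0 and lay between 0 and 1 with 1 array left out (1 without control 2 or without control 3); it was 3 without control 3 and hydrogen water 4 together, none of them a clock gene. The count of clock genes with an unadjusted p under 0.05 was 0 in every other setting and 1 without that pair of arrays (Cry1, −0.41, limma adjusted p = 0.616). Clock genes higher with hydrogen water numbered 5 or 6 in every setting. The difference of Arntl, near 0, took the other sign with quantile normalization (−0.016), median centring (−0.0085), array weights (−0.20) and without control 3 and hydrogen water 4 (−0.16), and lay between −0.18 and 0.28 with 1 array left out. That of Nr1d2 was 0.061 with array weights and 0.083 without that pair, and between −0.17 and 0.10 with 1 array left out. That of Dbp lay between −0.11 (without control 2) and 0.52 (without control 1), and was −0.10 without hydrogen water 3. That of Per3 lay between −0.047 (without hydrogen water 3) and 0.34 with 1 array left out. Of the 20 named list genes, 14 had a difference that moved by over 1.5 times with 1 array left out, an alternative added after seeing the data; the other 6 were Rorb, Kmt2a, Dnajb11, Fkbp5, Nr4a2 and Rbm3. The sign turned for Btrc (−0.29 to 0.034) and Cirbp (−0.43 to 0.030). The difference in the index lay between −0.28 and 0.20 over all settings. With the replicate number as a block, 0 genes and 0 clock genes passed and 6 clock genes were higher. Deviations of same-numbered arrays correlated by −0.16 to 0.06. These values do not settle whether the numbers pair the arrays, which no label states. Each measured clock gene has 1 probe set, so averaging probe sets changed nothing for it and no other probe set could be tried. The cause of the sign changes was not tested.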

Other observations

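The genes here were chosen after their values were seen. Ciart and Rgs16, both tied to the clock, had a wider range over the arrays than any of the 9 core genes. Ciart, which encodes the repressor CHRONO, stood at 6.78, 6.18, 8.94 and 8.36 on controls 1 to 4 and 7.20, 7.67, 7.95 and 9.04 on hydrogen water 1 to 4, a range of 2.86 on the log2 scale. Rgs16, a regulator of G protein signalling that responds to fasting in liver, stood at 9.18, 7.56, 10.07 and 8.01 and at 8.45, 8.51, 8.24 and 10.30, a range of 2.75. Both were highest on control 3 and hydrogen water 4 and lowest on control 2. Control 3 and hydrogen water 4 were not the arrays with the highest Dbp. They had the lowest array weights of all arrays, 0.424 and 0.7295. Such a weight falls as an array deviates over all genes. The transferrin receptor gene Tfrc ranged over 1.83, lowest on control 3. Hydrogen water minus control, these genes differed by 0.40 (SE 0.55), 0.17 (SE 0.54) and −0.03 (SE 0.35).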
